A study of Mus musculus with 8 samples.

Results

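The genes described here are 9 of the 33696 genes in the count matrices, and all encode parts of the system that calls neutrophils into tissue. They were chosen by name, with their UMI counts in neutrophil and monocyte/macrophage types by genotype already known, so their values in those cells are a description and carry no p-value here. The libraries were made from live CD45+ leukocytes sorted from liver metastases 30 days after Venus-AKTPM/LOH colorectal cancer cells were injected into the spleen. The tumours came from 2 Vav1CreTet2KO mice, in which Cre driven by the blood-lineage gene Vav1 deletes floxed Tet2, and from 2 Tet2fl/fl mice, which carry the floxed alleles without the Cre deletion. The labels give no age, sex or litter, and number the mice of each genotype 1 and 2 as biological replicates. Each tumour was digested with collagenase and DNase before sorting and gave one 5' gene expression library aimed at 10000 cells. Because Vav1-Cre acts in all blood lineages, every sorted cell type of the Vav1CreTet2KO mice could carry the deletion, and no cell type served as an undeleted control within a mouse. With 2 mice per genotype, an exact permutation test of a single value could not give a two-sided p under 0.33, so the tests below come from models fitted across all genes.

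CXCL1, CXCL2 and CXCL3 are small secreted chemokines that bind CXCR2 on neutrophils and draw them out of the blood. CXCR4 binds CXCL12 and holds neutrophils in the bone marrow, and its level is known to rise again as neutrophils age. G-CSF, acting through CSF3R, drives the production and release of neutrophils, while prokineticin 2, CCRL2 and HCAR2 are a secreted myeloid peptide, an atypical receptor that binds chemerin and an anti-inflammatory receptor for ketone bodies and niacin.

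The 3 ligand genes lie on the plus strand of mouse chromosome 5, in a span of 119.836 kb between positions 90933962 and 91053797 of GRCm39, and each has 4 exons. In order along the chromosome they are Cxcl3, Cxcl1 and Cxcl2, with most of the span between Cxcl3 and Cxcl1. Their promoters are shown because the 3 ligands are compared throughout and because their sequences resemble each other. Each line gives the 150 bases upstream of the annotated start (GRCm39, plus strand, 5′ to 3′, gene starts from GENCODE vM39), with a match to the NF-kappaB consensus in capitals.
Cxcl1 chr5:91038944-91039093: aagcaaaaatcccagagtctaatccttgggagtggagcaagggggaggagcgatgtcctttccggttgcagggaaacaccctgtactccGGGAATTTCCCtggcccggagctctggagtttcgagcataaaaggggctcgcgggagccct
Cxcl2 chr5:91051580-91051729: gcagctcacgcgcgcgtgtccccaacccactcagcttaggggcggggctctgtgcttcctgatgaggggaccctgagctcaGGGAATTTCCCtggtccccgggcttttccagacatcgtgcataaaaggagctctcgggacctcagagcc
Cxcl3 chr5:90933812-90933961: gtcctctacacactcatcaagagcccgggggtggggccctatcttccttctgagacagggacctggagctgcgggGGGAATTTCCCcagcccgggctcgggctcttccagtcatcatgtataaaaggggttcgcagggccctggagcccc
The consensus was searched on both strands by name, and the capitals cover 2 overlapping matches in each promoter, nearest to the start at 60 bases upstream in Cxcl1, 68 in Cxcl2 and 74 in Cxcl3. Of 21751 promoters of protein-coding mouse genes, at starts from GENCODE vM39, 616 (2.83%) held a match within 150 bases and 920 (4.23%) within 250 bases. None of the windows of the other 6 genes held one. Aligned pairwise, the 3 promoter windows were 61.3% identical between Cxcl1 and Cxcl2, 57.5% between Cxcl1 and Cxcl3 and 62.1% between Cxcl2 and Cxcl3. The transcripts of Cxcl2 and Cxcl3 also share an identical run of 110 bases, starting at base 63 of Cxcl2 and base 57 of Cxcl3, close to the 5' end that these libraries read. How reads from that run were assigned is not given in the sources used here, so counts of Cxcl2 and Cxcl3 are uncertain to the extent that such reads could be split or lost. The longest runs that Cxcl1 shares with either gene are 23 bases.

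Cells were clustered with the 9 genes left out of the variable genes, and neutrophil-like cells numbered 531 and 251 in Vav1CreTet2KO mice 1 and 2, against 1726 and 1360 in Tet2fl/fl mice 1 and 2. Monocyte/macrophage-like cells numbered 1042 and 1271 in the Vav1CreTet2KO mice, against 6616 and 7580 in the Tet2fl/fl mice. The libraries held 57190926 and 60456627 UMIs in the Vav1CreTet2KO mice and 89945864 and 91789597 in the Tet2fl/fl mice, and each pair of libraries shared 272 to 303 cell barcodes. Tet2 itself stood at 37.8 and 32.3 CPM over the whole library in Vav1CreTet2KO mice and at 67.2 and 65.9 in Tet2fl/fl mice, but at 78.6 and 82.7 against 122 and 76.7 within neutrophil-like cells, where the groups overlapped. The labels do not say which exon is floxed, and 5' reads outside a deleted exon do not check the deletion. All levels below are in CPM, the UMIs of a gene scaled by the summed UMIs of the cells of that class in that mouse. They are not per length, and are compared between mice and classes for 1 gene at a time. Summed over a class, a lower level could come from fewer expressing cells or from less RNA in each, and shares of cells with a UMI are given where they bear on this.

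Neutrophil-like cells were the class with the highest mean level of 8 of the 9 genes over the 10 classes in which each mouse had 30 cells or more. Cxcl2 averaged 15942 CPM there over the 4 mice, Ccrl2 5891, Hcar2 1989, Csf3r 1181 and Cxcr2 321. For these 5 genes the lowest of the 4 mice in neutrophil-like cells lay above the highest mouse of every other class. Prok2 averaged 108 CPM in neutrophil-like cells and its lowest mouse there, at 4.60, lay just above the 4.29 of the highest dendritic mouse. Monocyte/macrophage-like cells came next for Cxcl2 (1200 CPM), Ccrl2 (654), Csf3r (64.6) and Hcar2 (35.0), in each case above every mouse of the class below them. Cxcl1 was the exception, with 29.8 CPM in monocyte/macrophage-like cells and 26.4 in neutrophil-like cells, and these ranges overlapped. Cxcl3 averaged 721 CPM in neutrophil-like cells, above 21.9 in monocyte/macrophage-like cells, and here too the ranges over mice overlapped. For Cxcr4 the order ran from neutrophil-like (363) through monocyte/macrophage-like (196) and B-like cells (177) to plasma-like cells (44.7), and each class overlapped the one above it.

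**Figure D1:**
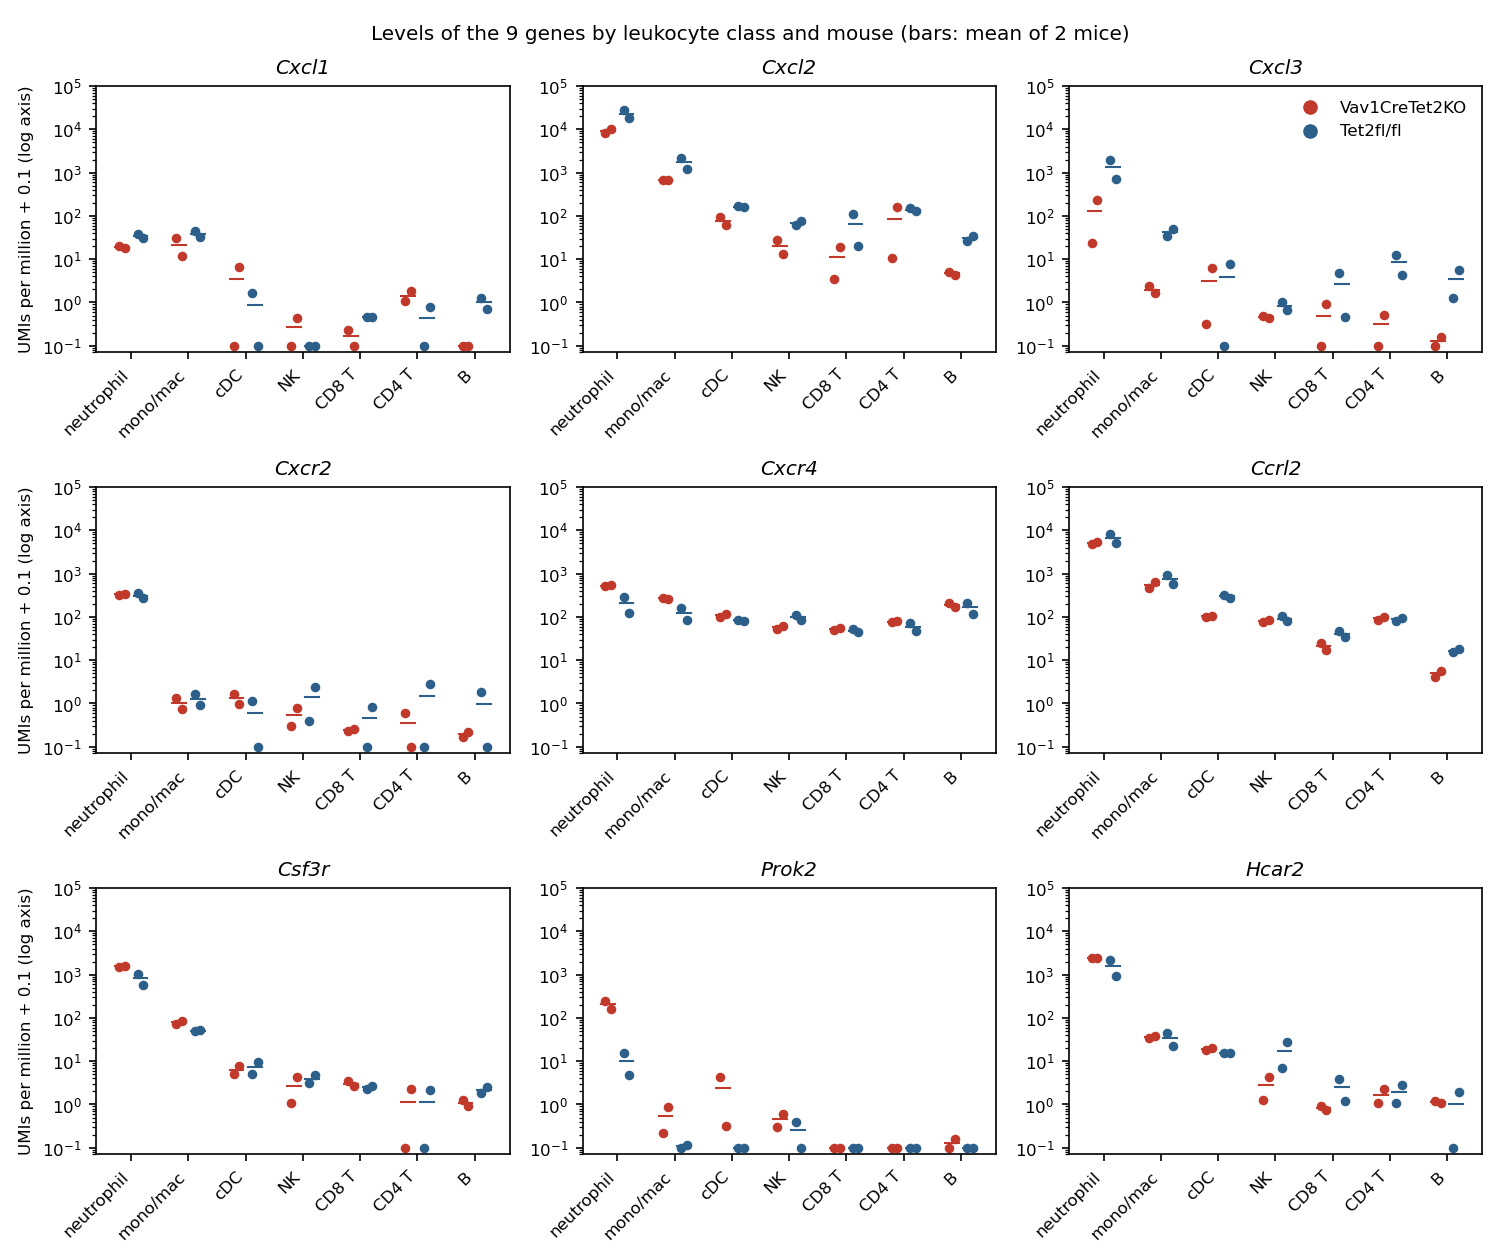
Level of each of the 9 genes (CPM + 0.1, log axis) in 7 cell classes, with 1 point per mouse, a bar at the mean of each genotype and Vav1CreTet2KO mice drawn to the left of Tet2fl/fl mice. Cxcl2, Ccrl2, Csf3r, Hcar2 and Cxcr2 are highest in neutrophil-like cells, while Cxcr4 is found in all 7 classes.

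The classes differed in size between genotypes, and so did the cells in which the UMIs of a gene were counted. In Vav1CreTet2KO mice 51.8% and 35.7% of all Cxcl2 UMIs lay in neutrophil-like cells, with 22.4% and 39.1% in those of the monocyte/macrophage-like class. In Tet2fl/fl mice these shares were 37.3% and 40.4% for the neutrophil-like class, with 56.7% and 49.7% for the monocyte/macrophage-like class. Cxcl1 was mostly a monocyte/macrophage-like transcript, which held 83.4% and 53.2% of its 289 and 203 UMIs in Vav1CreTet2KO mice and 89.8% and 89.0% of its 3044 and 2157 UMIs in Tet2fl/fl mice. For Cxcr4 the main source differed, with 55.3% and 59.1% of UMIs in classes other than these in Vav1CreTet2KO mice, against 12.3% and 17.0% in Tet2fl/fl mice. Cxcr2 UMIs came chiefly from neutrophil-like cells in every mouse, at 69.6% and 66.9% in Vav1CreTet2KO mice and 83.7% and 81.7% in Tet2fl/fl mice.

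**Figure D2:**
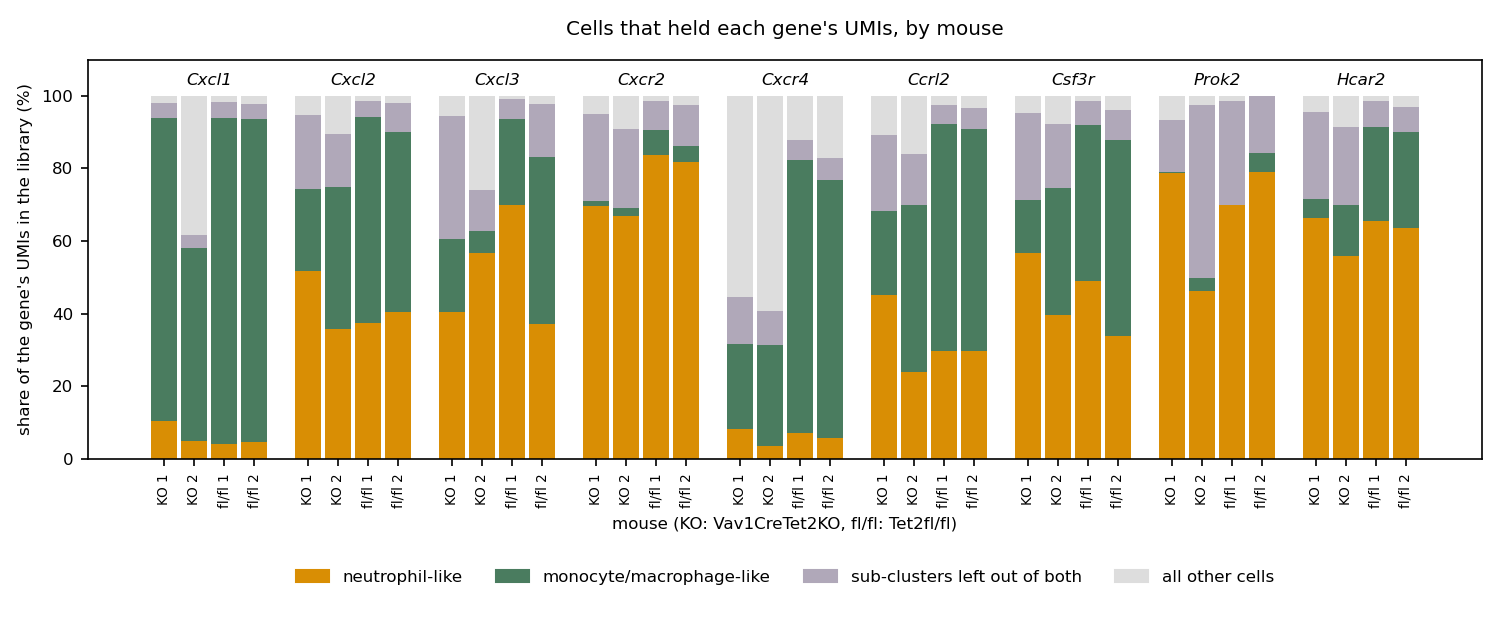
Share of each gene's UMIs (percent, vertical axis) that lay in neutrophil-like cells, monocyte/macrophage-like cells, sub-clusters of these led by another class, and all other cells, with 1 bar per mouse and Vav1CreTet2KO mice first. Most Cxcl1 UMIs lie in monocyte/macrophage-like cells and most Cxcr2 UMIs in neutrophil-like cells.

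Cxcl2, a CXCR2 ligand made by many activated myeloid cells, was lower in neutrophil-like cells of both Vav1CreTet2KO mice. It stood at 8161 and 10166 CPM in Vav1CreTet2KO mice, against 27369 and 18073 in Tet2fl/fl mice. The groups did not overlap, and the fitted log2 change (Vav1CreTet2KO over Tet2fl/fl, TMM-scaled) was -1.19 (SE 0.32). A UMI of the gene was found in most cells of both genotypes. After each cell was thinned to 1000 UMIs, 85.3% and 87.0% of neutrophil-like cells of Vav1CreTet2KO mice had a Cxcl2 UMI, against 96.1% and 82.1% in Tet2fl/fl mice, and these shares overlapped. UMIs of Cxcl2 per cell were 23.5 and 22.5 in Vav1CreTet2KO mice and 51.6 and 43.3 in Tet2fl/fl mice, although the median neutrophil-like cell held 2513 and 1948 UMIs in Vav1CreTet2KO mice and 1728.5 and 1697 in Tet2fl/fl mice.

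Cxcl2 was also lower in monocyte/macrophage-like cells, at 676 CPM in both Vav1CreTet2KO mice, against 2205 and 1242 in Tet2fl/fl mice. The log2 change was -1.45 (SE 0.26). Here fewer thinned cells held a UMI, at 17.1% and 16.8% in Vav1CreTet2KO mice and 45.3% and 31.6% in Tet2fl/fl mice. B-like cells, which should lack the gene, had median UMI counts of 3066 and 2876 in Vav1CreTet2KO mice and 2207 and 2429 in Tet2fl/fl mice, against 7764.5 and 7279 and 8671 and 7227 in monocyte/macrophage-like cells before thinning. They had a Cxcl2 UMI in 0.456% and 0.223% of thinned cells of Vav1CreTet2KO mice and in 2.04% and 3.28% of Tet2fl/fl mice. The level in B-like cells thus differed between genotypes in the same direction as the whole-library level, which was 447 and 286 CPM in Vav1CreTet2KO mice and 2839 and 1710 in Tet2fl/fl mice.

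Cxcl3, which encodes another CXCR2 ligand, showed the widest gap of the 3 ligands and the widest spread among mice. In neutrophil-like cells it stood at 23.6 and 232 CPM in Vav1CreTet2KO mice, against 1929 and 700 in Tet2fl/fl mice. Both Vav1CreTet2KO mice were lower than both Tet2fl/fl mice, but they also differed widely from each other, and the log2 change of -3.35 had an SE of 1.24. Without Vav1CreTet2KO mouse 2 the change was -5.48. A UMI was found in 1.74% and 6.49% of thinned neutrophil-like cells of Vav1CreTet2KO mice and in 28.3% and 16.2% of those of Tet2fl/fl mice. B-like cells held 0 and 1 Cxcl3 UMIs in Vav1CreTet2KO mice and 2 and 9 in Tet2fl/fl mice. In monocyte/macrophage-like cells Cxcl3 stood at 2.25 and 1.53 CPM in Vav1CreTet2KO mice (18 and 14 UMIs), against 35.0 and 48.7 in Tet2fl/fl mice. There the mice of a genotype lay close together and the log2 change was -4.59 (SE 0.27).

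The ratio of Cxcl3 to Cxcl2 UMIs needs no scaling by library. For each 100 Cxcl2 UMIs, neutrophil-like cells held 0.289 and 2.28 Cxcl3 UMIs in Vav1CreTet2KO mice, against 7.05 and 3.87 in Tet2fl/fl mice. The ratio in monocyte/macrophage-like cells was 0.333 and 0.226 per 100 in Vav1CreTet2KO mice, against 1.59 and 3.92 in Tet2fl/fl mice. In both classes Cxcl3 was thus lower relative to Cxcl2 in both Vav1CreTet2KO mice. The shared run described above makes the absolute ratio uncertain in every library.

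Cxcl1 encodes a CXCR2 ligand that epithelial and stromal cells are also known to make, and the CD45 sort selected against those cells. An unnamed cluster of 53 cells, led by Clu, Ptprb and Sparc, still remained. It held 2 and 4 Cxcl1 UMIs in Vav1CreTet2KO mice and 0 and 20 in Tet2fl/fl mice. Neutrophil-like cells held 19.6 and 18.0 CPM in Vav1CreTet2KO mice, against 38.1 and 30.1 in Tet2fl/fl mice, and the log2 change was -0.70 (SE 0.33). Monocyte/macrophage-like cells held 30.2 and 11.8 CPM in Vav1CreTet2KO mice, against 44.5 and 32.9 in Tet2fl/fl mice, with a log2 change of -1.02 (SE 0.48). The groups did not overlap in either class, but the gap in monocyte/macrophage-like cells was narrow, and between 0.433% and 2.12% of thinned cells of these classes had a UMI in any mouse.

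Prok2, which encodes the secreted peptide prokineticin 2 (also called Bv8), differed in the opposite direction to the CXCR2 ligands. Neutrophil-like cells held 249 and 164 CPM in Vav1CreTet2KO mice, against 15.1 and 4.60 in Tet2fl/fl mice. Every Vav1CreTet2KO value was above every Tet2fl/fl value, and the log2 change was 4.55 (SE 0.51). A Prok2 UMI was found in 8.72% and 7.79% of thinned neutrophil-like cells of Vav1CreTet2KO mice and in 0.897% and 0.240% of those of Tet2fl/fl mice, while B-like cells held 0 and 1 UMIs in Vav1CreTet2KO mice and 0 in both Tet2fl/fl mice. Monocyte/macrophage-like cells had 0.125 and 0.766 CPM in Vav1CreTet2KO mice and 0 and 0.0171 in Tet2fl/fl mice, too few to pass the filter on low counts.

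Cxcr2, the receptor of these ligands, had overlapping levels in the genotypes. Neutrophil-like cells held 324 and 338 CPM in Vav1CreTet2KO mice, against 351 and 269 in Tet2fl/fl mice. The Vav1CreTet2KO mice lay between the Tet2fl/fl mice, and the log2 change was 0.22 (SE 0.25). The thinned share of cells with a Cxcr2 UMI was 24.8% and 26.8% in Vav1CreTet2KO mice and 26.8% and 25% in Tet2fl/fl mice. Monocyte/macrophage-like cells held 0.656 to 1.51 CPM over the 4 mice, which is near the level in B-like cells.

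Cxcr4, the CXCL12 receptor, was higher in Vav1CreTet2KO mice in both myeloid classes. In neutrophil-like cells it stood at 509 and 534 CPM in Vav1CreTet2KO mice, against 286 and 124 in Tet2fl/fl mice, a log2 change of 1.49 (SE 0.35). Its level in monocyte/macrophage-like cells was 276 and 260 in Vav1CreTet2KO mice, against 163 and 84.6 in Tet2fl/fl mice, a log2 change of 1.01 (SE 0.32). The groups did not overlap in either class, and Tet2fl/fl mouse 2 was the lowest in both. Of thinned neutrophil-like cells, 39.1% and 37.2% had a Cxcr4 UMI in Vav1CreTet2KO mice, against 21.6% and 13.1% in Tet2fl/fl mice.

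Csf3r, the G-CSF receptor gene, was likewise higher in the Vav1CreTet2KO mice. Neutrophil-like cells held 1509 and 1586 CPM in Vav1CreTet2KO mice, against 1045 and 583 in Tet2fl/fl mice, and the log2 change was 1.06 (SE 0.30). In monocyte/macrophage-like cells the level was 73.6 and 85 in Vav1CreTet2KO mice, against 48.4 and 51.6 in Tet2fl/fl mice, with a log2 change of 0.56 (SE 0.14). The genotypes did not overlap in either class.

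Hcar2, the niacin and ketone body receptor gene, stood at 2390 and 2440 CPM in neutrophil-like cells of Vav1CreTet2KO mice, against 2176 and 951 in Tet2fl/fl mice. Most of this gap came from Tet2fl/fl mouse 2, since mouse 1 lay close to the Vav1CreTet2KO mice, and the log2 change of 0.77 had an SE of 0.35. In monocyte/macrophage-like cells the level was 34.2 and 38.0 in Vav1CreTet2KO mice, against 45.9 and 22.2 in Tet2fl/fl mice, so that the groups overlapped (log2 change -0.01, SE 0.40).

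Ccrl2 encodes the atypical receptor that binds chemerin. In neutrophil-like cells it stood at 4769 and 5396 CPM in Vav1CreTet2KO mice, against 8353 and 5047 in Tet2fl/fl mice. The groups overlapped, the log2 change was -0.27 (SE 0.31), and without Tet2fl/fl mouse 1 it was 0.07. Ccrl2 in monocyte/macrophage-like cells stood at 470 and 631 in Vav1CreTet2KO mice, against 934 and 580 in Tet2fl/fl mice, which again overlapped (log2 change -0.56, SE 0.27).

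**Figure D3:**
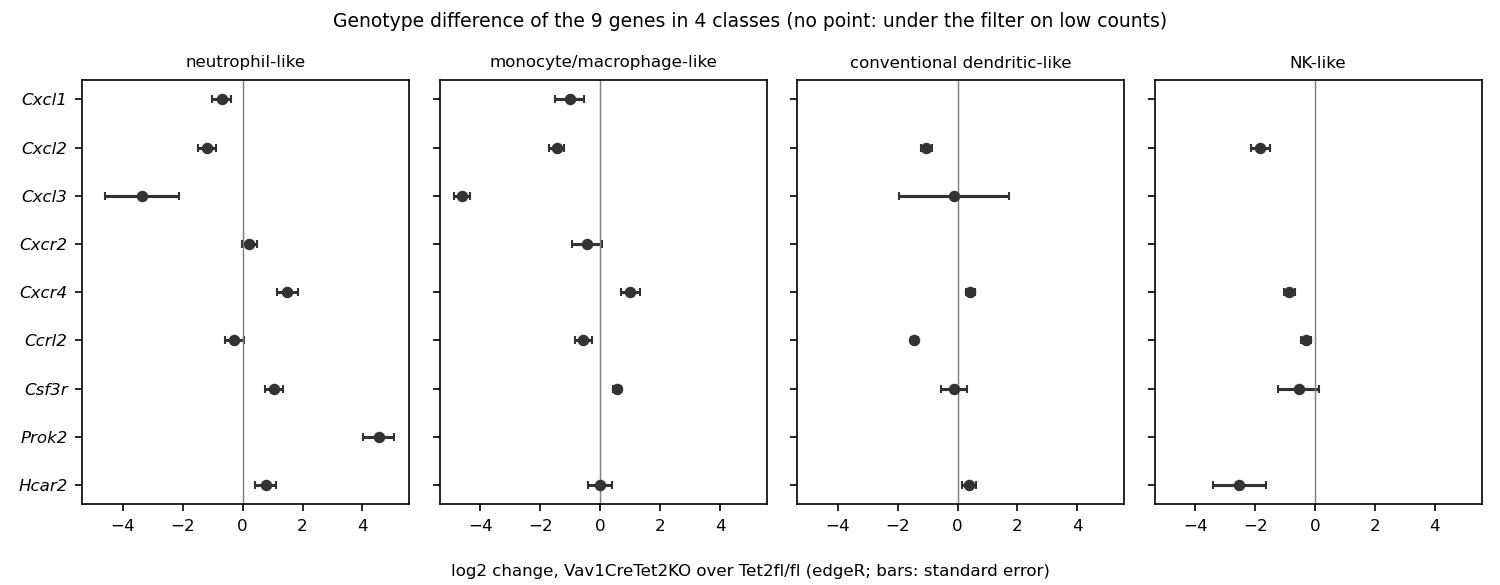
Log2 change (Vav1CreTet2KO over Tet2fl/fl, horizontal axis) of each gene with its standard error, fitted by edgeR in the classes where the gene passed the filter on low counts. In neutrophil-like cells Prok2, Cxcr4 and Csf3r lie to the right of 0 and Cxcl1, Cxcl2 and Cxcl3 to the left.

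Over all genes, edgeR's quasi-likelihood test called 556 of 7904 genes in the neutrophil-like class (7.03%) and 2446 of 13829 in the monocyte/macrophage-like class (17.7%) at an adjusted p under 0.05. All 9 genes described here passed the filter on low counts in neutrophil-like cells and 3 were among the called genes, with Cxcr4 and Prok2 higher and Cxcl2 lower in Vav1CreTet2KO mice. Of the monocyte/macrophage-like class 8 passed the filter and 3 were called, with Csf3r higher and Cxcl2 and Cxcl3 lower. The genes were chosen on these same contrasts, so nothing is read from these counts. The median log2 change of the 9 was 0.22 in neutrophil-like cells, beside -0.07 for all genes tested, and that of the 8 in monocyte/macrophage-like cells was -0.49, beside 0.01 for all genes tested.

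The neutrophil-like cells of the genotypes were not the same mixture. An interferon-high sub-cluster, marked by Ifit3, Rsad2 and Rtp4, made up 67.2% and 51.0% of neutrophil-like cells in Vav1CreTet2KO mice, against 3.77% and 0.588% in Tet2fl/fl mice. An inflammatory sub-cluster marked by Ccl3, Il1a, Tnf, Ptgs2 and Siglecf made up 0.753% and 12.7% in Vav1CreTet2KO mice, against 48.2% and 47.4% in Tet2fl/fl mice. Both names rest on part of a longer marker list, and the other genes of the lists are not given by sub-cluster here. Ccl4, also on the inflammatory list, was higher in the whole neutrophil-like class of Vav1CreTet2KO mice, whereas Il1a and Ptgs2 were lower. It stood at 6023 and 6135 CPM there, against 3404 and 999 in Tet2fl/fl mice. At the level of all cells, cluster 18 held 90.6% and 74.9% of the neutrophil-like cells of Vav1CreTet2KO mice and 22.7% and 17.0% of those of Tet2fl/fl mice, while cluster 24 held most of the rest in Tet2fl/fl mice. The 16 neutrophil markers summed to 141923 and 120248 CPM in neutrophil-like cells in Vav1CreTet2KO mice and 88808 and 239267 in Tet2fl/fl mice. The same genes are therefore given within sub-clusters where the numbers of cells allowed it.

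One unnamed sub-cluster, led by mitochondrial transcripts such as mt-Nd4l and mt-Atp8, had at least 30 cells in every mouse, with 128 and 65 cells in Vav1CreTet2KO mice and 118 and 56 in Tet2fl/fl mice. Within it Cxcl2 stood at 9563 and 11565 CPM in Vav1CreTet2KO mice, against 32599 and 32440 in Tet2fl/fl mice. Cxcl3 stood at 18.6 and 137 in Vav1CreTet2KO mice, against 1612 and 1561 in Tet2fl/fl mice. For both ligands the genotypes were thus further apart relative to the spread between mice than in the whole class. Mitochondrial transcripts set this sub-cluster apart, and whether it held the same mixture of neutrophil states in each genotype was not tested. No Prok2 UMI was counted there in Tet2fl/fl mice, whereas Vav1CreTet2KO mice held 209 and 201 CPM (118 UMIs in all), which is at least 26.9-fold higher than the floor of 3 counts over the Tet2fl/fl cells. Cxcr4 was 559 and 518 in Vav1CreTet2KO mice, against 355 and 228 in Tet2fl/fl mice, and Csf3r was 1570 and 1732 against 1062 and 956. Cxcr2, at 311 and 273 in Vav1CreTet2KO mice and 395 and 412 in Tet2fl/fl mice, was lower in the Vav1CreTet2KO mice here, unlike in the whole class.

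In the interferon-high sub-cluster, with 357 and 128 cells in Vav1CreTet2KO mice and 65 and 8 in Tet2fl/fl mice, Cxcl2 stood at 7907 and 7454 CPM in Vav1CreTet2KO mice, against 26916 in Tet2fl/fl mouse 1. Prok2, which was itself among the genes that lead this sub-cluster, stood at 317 and 218 in Vav1CreTet2KO mice, against 80.5 in Tet2fl/fl mouse 1 (9 UMIs). Tet2fl/fl mouse 2 had too few cells there to give a level. In the inflammatory sub-cluster the 32 cells of Vav1CreTet2KO mouse 2 held 23970 CPM of Cxcl2, against 33758 and 35620 in Tet2fl/fl mice, and 1181 of Cxcl3 against 2517 and 1378. Vav1CreTet2KO mouse 1 had 4 cells there and is not compared.

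A sub-cluster led by the granule genes Camp, Ngp and Ltf, which mark immature neutrophils, was low in nearly all of the genes. It had 24 and 8 cells in Vav1CreTet2KO mice and 31 and 259 in Tet2fl/fl mice. Its Cxcl2 level of 3876 and 2153 CPM in Tet2fl/fl mice was below that of every other neutrophil sub-cluster with at least 30 cells in that mouse. Csf3r was 122 and 92.8 there and Cxcr2 145 and 98.4. This sub-cluster made up 4.52% and 3.19% of neutrophil-like cells in Vav1CreTet2KO mice and 1.80% and 19.0% in Tet2fl/fl mice. The mouse with the largest share of it, Tet2fl/fl mouse 2, was also the lowest of the 4 in the whole class for Cxcr2, Cxcr4, Csf3r, Hcar2 and Prok2. The part of this sub-cluster in those levels was not tested.

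**Figure D4:**
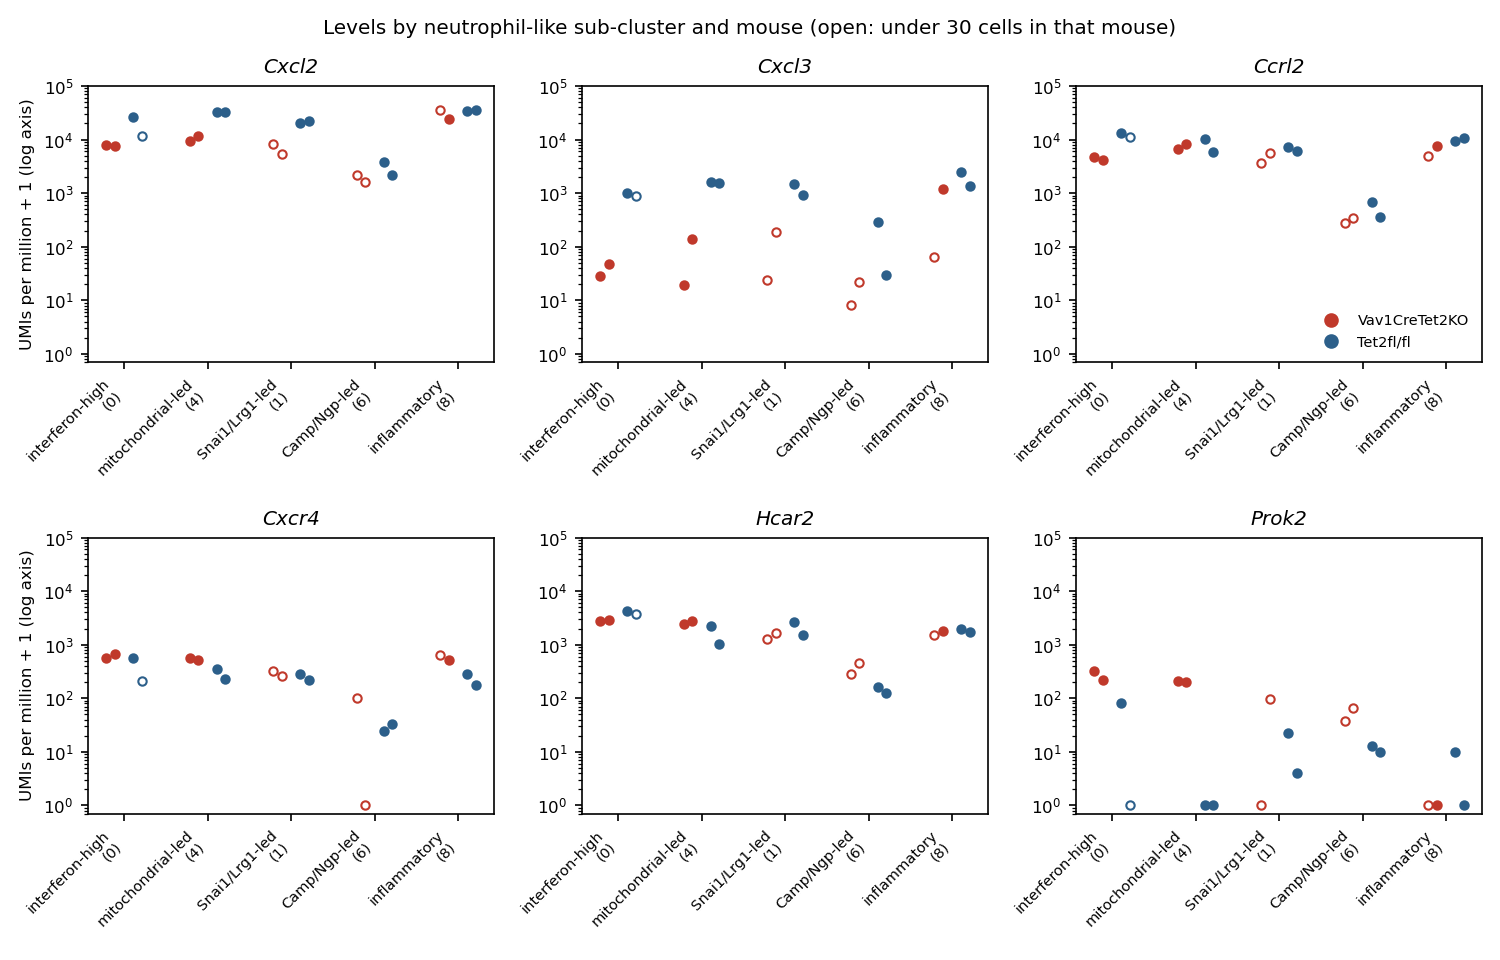
Levels of 6 of the genes (CPM + 1, log axis) in 5 sub-clusters of neutrophil-like cells, with 1 point per mouse, open where the mouse had under 30 cells there, and Vav1CreTet2KO mice to the left of Tet2fl/fl mice. In the mitochondrial-led sub-cluster 4, where all 4 mice had at least 30 cells, Cxcl2 lies between 9563 and 11565 in Vav1CreTet2KO mice and between 32440 and 32599 in Tet2fl/fl mice.

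Among monocyte/macrophage-like cells, the C1q macrophage-like sub-cluster had 331 and 413 cells in Vav1CreTet2KO mice and 1258 and 437 in Tet2fl/fl mice. Cxcl2 stood there at 1033 and 880 CPM in Vav1CreTet2KO mice, against 2639 and 1404 in Tet2fl/fl mice. Cxcl3 was nearly absent in Vav1CreTet2KO mice, with 1 and 6 UMIs (0.296 and 1.71 CPM), against 25.3 and 35.4 CPM in Tet2fl/fl mice. Cxcr4 was 241 and 256 in Vav1CreTet2KO mice, against 169 and 134 in Tet2fl/fl mice. For all 3 genes the genotypes did not overlap within C1q macrophage-like cells as in the whole class.

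Arginase-1 macrophage-like cells, with 41 and 66 cells in Vav1CreTet2KO mice and 1670 and 1568 in Tet2fl/fl mice, are tumour macrophages that break down arginine. Cxcl1 was 8.97 and 23.5 CPM in Vav1CreTet2KO mice (3 and 17 UMIs), against 71.0 and 84.9 in Tet2fl/fl mice. Cxcl2 was 1441 and 1794 in Vav1CreTet2KO mice, against 2834 and 2022 in Tet2fl/fl mice. Ccrl2 ran the other way from the class as a whole, at 1668 and 1922 in Vav1CreTet2KO mice and 1399 and 906 in Tet2fl/fl mice. Hcar2 was also higher there, at 140 and 118 in Vav1CreTet2KO mice, against 87.2 and 42.1 in Tet2fl/fl mice.

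Patrolling monocyte-like cells made up 42.1% and 40.2% of the class in Vav1CreTet2KO mice and 2.72% and 0.792% in Tet2fl/fl mice, and Cxcl2 was lower in them than in C1q macrophage-like cells of the same mouse in all 4 mice. Cxcl2 was 260 and 361 CPM in Vav1CreTet2KO mice, against 676 and 266 in Tet2fl/fl mice, and the groups overlapped. Cxcr4 was 337 and 308 in Vav1CreTet2KO mice, against 229 and 166 in Tet2fl/fl mice. Another pair of sub-clusters had at least 30 cells in every mouse, and neither was named. In sub-cluster 1, whose cells held few UMIs, Cxcl2 was 1213 and 877 CPM in Vav1CreTet2KO mice, against 2879 and 1020 in Tet2fl/fl mice. In sub-cluster 8, led by Arhgef37, Slfn1 and Rgs3 among others, it was 162 and 17.3 in Vav1CreTet2KO mice, against 152 and 98.1 in Tet2fl/fl mice. The mixture of the class thus differed between genotypes, and of these 5 sub-clusters the Cxcl2 levels of the genotypes overlapped in 3 and did not in the C1q and arginase-1 macrophage-like cells.

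In single cells Ccrl2 was found with Cxcl2 more often than without it. Of thinned neutrophil-like cells with a Cxcl2 UMI, 76.6% and 81.6% had a Ccrl2 UMI in Vav1CreTet2KO mice, against 52.6% and 40.0% of those without Cxcl2. In Tet2fl/fl mice the shares were 90.1% and 83.7% with Cxcl2, against 59% and 29.5% without it. The order for Ccrl2 was the same in monocyte/macrophage-like cells, with 40.8% and 47.1% against 16.3% and 23.1% in Vav1CreTet2KO mice and 54.1% and 42.1% against 35.7% and 27.2% in Tet2fl/fl mice. Cxcl3 was found in 2.05% and 7.46% of Cxcl2-positive neutrophil-like cells in Vav1CreTet2KO mice and in none of the 76 and 30 cells without Cxcl2, which allows shares of up to 3.95% and 10.0%. In Tet2fl/fl mice it was found in 29.3% and 19.4% of cells with Cxcl2 and in 1.64% and 1.34% of those without. Hcar2 and Csf3r were also found more often in neutrophil-like cells with Cxcl2 in all 4 mice. For Hcar2 the shares were 79.8% and 75.1% with Cxcl2 against 60.5% and 50.0% without it in Vav1CreTet2KO mice, and 68.5% and 49.7% against 34.4% and 18.3% in Tet2fl/fl mice. For Csf3r they were 74.3% and 80.1% against 61.8% and 70.0% in Vav1CreTet2KO mice, and 61.9% and 50.7% against 41.0% and 21.0% in Tet2fl/fl mice. Cxcr2 showed no such order in 3 of the 4 mice, with 24.5% and 26.4% of Cxcl2-positive cells and 26.3% and 30.0% of Cxcl2-negative cells in Vav1CreTet2KO mice, and 26.7% and 27.1% against 27.9% and 15.6% in Tet2fl/fl mice. Cells of all neutrophil sub-clusters were counted together in these shares.

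**Figure D5:**
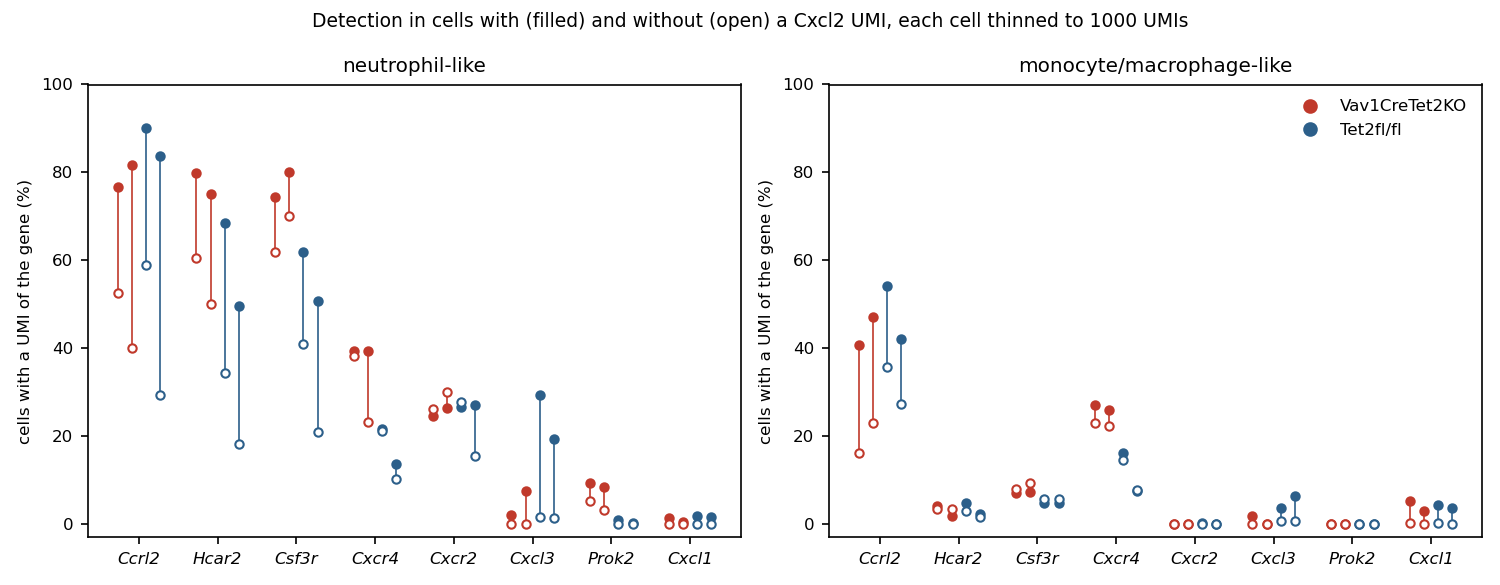
Share of thinned cells with a UMI of each gene (percent, vertical axis) among neutrophil-like and monocyte/macrophage-like cells with (filled) and without (open) a Cxcl2 UMI, with 1 pair of points per mouse and Vav1CreTet2KO mice to the left. Among neutrophil-like cells Ccrl2 is found in 76.6% to 90.1% of cells with Cxcl2 and in 29.5% to 59% of cells without it.

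Outside the neutrophil and monocyte/macrophage types, where the choice of genes did not use the values, the genes could be tested. They passed the filter on low counts in 26 combinations of gene and class. At an adjusted p under 0.05 edgeR's quasi-likelihood test called 5 of them, all lower in Vav1CreTet2KO mice. The share of all genes called in these classes ran from 0.0496% in B-like cluster 2 to 11.6% in conventional dendritic-like cells. Among the 5 were Cxcl2 in NK-like cells, set beside B-like cells below, and Cxcl2 in B-like cluster 12, of a class that should lack it.

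In conventional dendritic-like cells Ccrl2 fell, at 102 and 107 CPM in Vav1CreTet2KO mice, against 315 and 277 in Tet2fl/fl mice (log2 change -1.44, SE 0.13, edgeR adjusted p = 0.000655). Both Vav1CreTet2KO mice lay at about the same low level, the groups did not overlap, and the call held under all 12 alternatives tried. B-like cells of the same libraries held 4.09 and 5.68 CPM of Ccrl2 in Vav1CreTet2KO mice and 15.5 and 17.7 in Tet2fl/fl mice, far below the dendritic level. Cxcl2 also fell in these cells, at 92.5 and 60.3 in Vav1CreTet2KO mice, against 170 and 158 in Tet2fl/fl mice (log2 change -1.04, SE 0.19, edgeR adjusted p = 0.0102). A Cxcl2 UMI was found in 2.29% and 3.43% of thinned dendritic-like cells of Vav1CreTet2KO mice and 7.41% and 6.32% of Tet2fl/fl mice, above the B-like shares. The Cxcl2 call was lost without Tet2fl/fl mouse 1 (adjusted p = 0.115) or mouse 2 (0.108). Of 6 genes tested in these cells 2 were called, beside 11.6% of all genes tested there. The 16 neutrophil markers summed to 207 and 203 CPM in conventional dendritic-like cells in Vav1CreTet2KO mice, against 374 and 384 in Tet2fl/fl mice. The 18 monocyte/macrophage markers summed there to 2187 and 3153 in Vav1CreTet2KO mice, against 4227 and 4486 in Tet2fl/fl mice. Both sums differed in the same direction as Ccrl2 and Cxcl2, and their part in these results was not tested. The dendritic-like class was cluster 14 alone, led by Cd209a, Xcr1 and Clec9a among others, and its mixture by genotype was not tested.

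In NK-like cells Cxcl2 and Cxcr4 fell, 2 of 5 genes tested, beside 4.63% of all genes tested there. Cxcl2 stood at 27.4 and 13.1 CPM in Vav1CreTet2KO mice, against 61.4 and 74.9 in Tet2fl/fl mice (log2 change -1.82, SE 0.32, edgeR adjusted p = 0.0407). In each mouse this was above the level in B-like cells, at 5.06 and 4.18 in Vav1CreTet2KO mice and 25.6 and 34.8 in Tet2fl/fl mice. A Cxcl2 UMI was found in 0.949% and 0.317% of thinned NK-like cells of Vav1CreTet2KO mice and 1.62% and 2.03% of Tet2fl/fl mice. The B-like shares were 0.456% and 0.223% in Vav1CreTet2KO mice and 2.04% and 3.28% in Tet2fl/fl mice. Whether the NK-like Cxcl2 signal is background from other cells was not tested. For Cxcr4 the B-like cells give no background level, since they held 206 and 169 in Vav1CreTet2KO mice and 213 and 119 in Tet2fl/fl mice. In NK-like cells Cxcr4 was lower than that in each mouse. It stood at 53.2 and 62.2 in Vav1CreTet2KO mice, against 112 and 85.5 in Tet2fl/fl mice (log2 change -0.86, SE 0.17, edgeR adjusted p = 0.0278). This is opposite in sign to Cxcr4 in the myeloid classes. The NK-like cells themselves differed, since cluster 10, led by Gzmc, Klra5 and Cd7, held 70.5% and 71.4% of them in Vav1CreTet2KO mice, against 16.0% and 39.8% in Tet2fl/fl mice. Within cluster 10 Cxcr4 stood at 33.2 and 43.8 in Vav1CreTet2KO mice, against 60.5 and 72.2 in Tet2fl/fl mice. Within cluster 15, led by Klra4, Cma1 and Klra8, it stood at 97.4 and 105 in Vav1CreTet2KO mice, against 121 and 92.8 in Tet2fl/fl mice, and the groups overlapped. The Cxcr4 call was lost without Vav1CreTet2KO mouse 1 (adjusted p = 0.287) or mouse 2 (0.116) and without Tet2fl/fl mouse 1 (0.0742), and that of Cxcl2 without Tet2fl/fl mouse 1 (0.156) or mouse 2 (0.158) and at the coarser clustering resolution of 0.5 (0.349). The neutrophil markers summed to 35.4 and 200 CPM in NK-like cells in Vav1CreTet2KO mice, against 85.7 and 786 in Tet2fl/fl mice, and their part was not tested.

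B-like cells served above as the class that should lack the ligands, and their Cxcl2 level was itself lower in Vav1CreTet2KO mice. In B-like cluster 12 Cxcl2 stood at 3.77 and 3.40 CPM in Vav1CreTet2KO mice (23 and 24 UMIs), against 16.9 and 42.7 in Tet2fl/fl mice (13 and 48 UMIs), and it was called (log2 change -3.08, SE 0.41, edgeR adjusted p = 0.0434), 1 of 3 genes tested, beside 0.18% of all genes tested there. Without Tet2fl/fl mouse 2 the adjusted p was 0.191. In B-like cluster 2 edgeR called 0 of 3 genes (2 at an unadjusted p under 0.05, and 2 by DESeq2), beside 0.0496% of all genes, and in cluster 13 it called 0 of 2 (1 at an unadjusted p under 0.05, and 0 by DESeq2), beside 0.114%. Cxcr4 is a B cell gene as well as a myeloid one, and its level in cluster 12 was 172 and 147 in Vav1CreTet2KO mice and 194 and 117 in Tet2fl/fl mice, which overlapped.

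In T cells none of the genes was called. In CD8 T cells edgeR called 0 of 4 (1 at an unadjusted p under 0.05, and 0 by DESeq2), beside 0.837% of all genes, and in CD4 T cells 0 of 3 (0 at an unadjusted p under 0.05, and 0 by DESeq2), beside 0.26%. Cxcr4 in CD8 T cells stood at 50.4 and 54.1 CPM in Vav1CreTet2KO mice, against 51.6 and 44.8 in Tet2fl/fl mice, with a log2 change of 0.14 (SE 0.17). In CD4 T cells Cxcr4 was 74.6 and 80.9 in Vav1CreTet2KO mice, against 70.9 and 48.0 in Tet2fl/fl mice (log2 change 0.46, SE 0.24, edgeR adjusted p = 0.404). Ccrl2 in CD8 T cells was 25.1 and 16.8 in Vav1CreTet2KO mice, against 47.2 and 34.6 in Tet2fl/fl mice, which did not overlap but missed the threshold (log2 change -0.94, SE 0.27, edgeR adjusted p = 0.163).

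The genes whose levels ran most like each member over 43 class-by-mouse sums of 11 classes were read from the Pearson correlation of log2(CPM + 1), among 5857 genes with a mean of at least 20 CPM. These points share libraries and classes, so the values are a description. Cxcl2 ran most like Il1rn, the interleukin 1 receptor antagonist gene (r = 0.93), Ccrl2 (0.93) and the complement receptor gene C5ar1 (0.91). Ccrl2 ran most like Rab20, Il1rn and Cxcl2. Cxcl3 had lower values, with Lrg1 (0.83), Upp1 (0.82) and Wfdc21 (0.81), and Cxcl1 lay nearest to Cstb (0.84), Cmip (0.83) and Rab20 (0.82). Cxcr2 ran with the neutrophil genes Il36g (0.97), Stfa2l1 (0.96) and Hdc (0.95). Csf3r and Hcar2 shared Slc7a11, the cystine transporter gene, as their nearest gene (0.97 and 0.96), with Arg2 and Sgms2 next for Csf3r (0.97 and 0.96) and Csf3r and Cd300ld next for Hcar2 (0.95 and 0.94). Prok2 lay nearest to Ptgs2os2 (0.90), Stfa2l1 (0.89) and Chil1 (0.88), while Cxcr4 lay nearest to Ist1 (0.87), Sde2 (0.86) and Bri3 (0.86).

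A list of 64 other genes of neutrophil recruitment was tested in both myeloid classes. It was chosen with earlier results of these data known. Nothing is therefore read from its share of calls beside that of all genes in either class, and the p-values of its genes carry the same limit. In neutrophil-like cells 51 were tested, 3 rose and 7 fell (19.6% called, beside 7.03% of all genes), with a median log2 change of -0.34, beside -0.07 for all genes. Of the NF-kappaB response genes 3 of 10 fell and none rose. Ier3, an immediate early gene, stood at 471 and 787 CPM in Vav1CreTet2KO mice, against 2515 and 3032 in Tet2fl/fl mice (log2 change -2.05, SE 0.31, edgeR adjusted p = 0.0086). Socs3, a feedback inhibitor of cytokine signalling that also acts on the G-CSF receptor, stood at 117 and 144 against 474 and 407 (log2 change -1.65, edgeR adjusted p = 0.0086). Ptgs2, the inducible cyclooxygenase gene, stood at 321 and 288 against 907 and 799 (log2 change -1.36, edgeR adjusted p = 0.0175).

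Of 6 ligand and cytokine genes tested in neutrophil-like cells, Il1b fell, at 2190 and 3046 CPM in Vav1CreTet2KO mice, against 6607 and 7124 in Tet2fl/fl mice (log2 change -1.29, edgeR adjusted p = 0.0285). Of 17 receptor genes 2 fell, Ltb4r1 and the short-chain fatty acid receptor gene Ffar2, which had a log2 change of -2.69 (edgeR adjusted p = 0.012). Of 9 adhesion genes 2 rose and 1 fell. The integrin gene Itgal stood at 198 and 209 in Vav1CreTet2KO mice, against 111 and 67.8 in Tet2fl/fl mice (log2 change 1.31, edgeR adjusted p = 0.0253). Cd177, a neutrophil surface gene that was also one of the markers used to name the class, stood at 45.2 and 73.7 against 310 and 681 (log2 change -3.01, edgeR adjusted p = 0.0129). The granulocyte factor gene Gfi1 rose at a low level, 10.5 and 8.99 against 1.84 and 1.23 (log2 change 2.79, edgeR adjusted p = 0.0256). None of the 3 leukotriene enzyme genes was called. These counts rested on Vav1CreTet2KO mouse 1, without which 1 of the 51 was called.

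In monocyte/macrophage-like cells 54 of the list were tested, 7 rose and 16 fell (42.6% called, beside 17.7% of all genes), with a median log2 change of -0.28, beside 0.01 for all genes. Of the 10 NF-kappaB response genes 5 fell and none rose. Among those that fell, Ier3 stood at 303 and 365 CPM in Vav1CreTet2KO mice, against 1490 and 1051 in Tet2fl/fl mice (log2 change -2.03, edgeR adjusted p = 0.00105). Cd14 stood at 906 and 948 against 1852 and 2148 (log2 change -1.22, edgeR adjusted p = 0.00159). The rest of the 10 were not called and had log2 changes from -0.05 (Nfkbia) to 0.29 (Tnfaip3), so the fall was not shared by the whole group. Of 9 ligand and cytokine genes 3 fell, with Il1a at 20.8 and 23.1 against 76.4 and 63.1 (log2 change -1.77, edgeR adjusted p = 0.000467). Csf2 was called higher, at 0.501 and 1.2 against 0.0814 and 0.0343, a level of very few UMIs. Of 17 receptor genes 5 fell and 1 rose, including C5ar1 at 79.1 and 52.5 against 183 and 172 (log2 change -1.55, edgeR adjusted p = 0.00119) and Csf2rb at 146 and 173 against 308 and 344. Adhesion genes went both ways, with Itga4 at 278 and 249 against 127 and 130 (log2 change 0.93, edgeR adjusted p = 0.00189), Itgal and Icam1 also higher and Itgam and Cd44 lower. The enzyme gene Alox5 and the receptor gene Il17ra rose. Of 6 granulocyte factor genes Cebpd rose, at 133 and 131 against 88.9 and 95.6 (log2 change 0.40, edgeR adjusted p = 0.0491), and Cebpe fell, at 1.88 and 2.08 against 6.60 and 5.74. Without Vav1CreTet2KO mouse 1, 4 of 55 were called, and without mouse 2, 14 of 53.

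Genes that respond to tissue digestion differed with genotype in monocyte/macrophage-like cells, and Cxcl2 and several of the NF-kappaB response genes can be induced by digestion. In monocyte/macrophage-like cells 7 of 15 such genes rose and none fell, beside 17.7% of all genes called, with Hspa1b at 388 and 347 CPM in Vav1CreTet2KO mice, against 113 and 92.7 in Tet2fl/fl mice (log2 change 1.73, edgeR adjusted p = 0.000346), beside Hspa1a and Dnajb1. Their summed level was 13353 and 12983 in Vav1CreTet2KO mice, against 9821 and 7820 in Tet2fl/fl mice. In neutrophil-like cells the sum ran the other way, at 10089 and 10806 in Vav1CreTet2KO mice and 13533 and 15602 in Tet2fl/fl mice, and edgeR called 0 of 15 (6 at an unadjusted p under 0.05, and 0 by DESeq2), beside 7.03% of all genes. Cxcl2 was thus lower in Vav1CreTet2KO mice in both classes, while the summed level of the digestion genes was higher in one and lower in the other, and their part in the results was not tested.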

How the data were processed

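The deposited matrices of the 4 gene expression libraries give, for every barcode, the UMI count of each gene without scaling, per the file headers and values. Per the submitters' processing notes, Cell Ranger 8.0.1, Seurat 5.0.1, R 4.4.1 and GRCm39 were used; the annotation release and cell calling settings are not given in the sources used here. The 4 T cell receptor libraries were not used. The 9 genes, the gene lists and the tests were chosen with earlier results of these data known.

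Barcodes needed 200 genes or more and no more than 10% of UMIs from mitochondrial genes, doublets called by Scrublet were removed, and cells were clustered with scanpy 1.11.5 (2000 variable genes, 30 components, 20 neighbours, Leiden resolution 1) and named from marker genes. Neutrophil-like and monocyte/macrophage-like cells were clustered again at resolution 0.5. Sub-clusters led by markers of another class were left out, a rule chosen after seeing the data. They were 21.1% and 23.0% of neutrophil-like cells in Vav1CreTet2KO mice and 4.16% and 7.29% in Tet2fl/fl mice. Of the UMIs of that class they held 47.7% and 50.7% in Vav1CreTet2KO mice, against 16.4% and 19.9% in Tet2fl/fl mice. Of monocyte/macrophage-like cells they were 13.2% and 13.6% in Vav1CreTet2KO mice, against 3.78% and 7.92% in Tet2fl/fl mice. B-like cells were fitted by cluster, since the 10 leading genes of cluster 2 held 2 of the dendritic list (H2-DMb2 and Ccr7) and 1 B marker. Cluster 2 still passed all 9 B markers.

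UMIs were summed per mouse and class and compared with edgeR 4.0.16 in R 4.3.3 (filterByExpr, TMM, robust quasi-likelihood fit, two-sided, Benjamini-Hochberg over all genes of the class, threshold 0.05), which was tested on simulated counts first. Shares of cells with a UMI were taken after thinning to 1000 UMIs, which left out 0.567% to 9.56% of the cells of a class and mouse among neutrophil-like, monocyte/macrophage-like and B-like cells. Limits for shares of 0 (3 counts) cover counting error only. The text names all 9 genes, at most 6 called list genes per direction and class by p (Cebpd, Ltb4r1 and others beyond these were named after their values were seen), at most 3 digestion genes, and the 3 genes most like each of the 9. One list gene that this rule names is not reported here. Alternatives were DESeq2 1.42.0, its size factors, no filter, a replicate block, each mouse left out, doublets kept, other cell filters, resolutions and thinning, and sub-clusters kept. Same-numbered mice did not deviate together (correlation -0.06 in neutrophil-like and -0.05 in monocyte/macrophage-like cells).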

Additional observations from a re-analysis of the deposited data

Results flagged for a closer look

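Cxcr4 differed in the opposite direction in NK-like cells and in some other classes, with every mouse of one genotype above every mouse of the other in each of them. The log2 change (Vav1CreTet2KO over Tet2fl/fl) was 1.49 in neutrophil-like, 1.01 in monocyte/macrophage-like, 0.43 in conventional dendritic-like and 0.46 in CD4 T cells, against -0.86 in NK-like cells. Cxcr4 was not called in conventional dendritic-like (edgeR adjusted p = 0.0836) or CD4 T cells (0.404), and its groups overlapped in CD8 T and B-like cells. The groups also overlapped within NK-like cluster 15. Cluster 10 held 70.5% and 71.4% of NK-like cells in Vav1CreTet2KO mice, against 16.0% and 39.8% in Tet2fl/fl mice, and the part of this mixture was not tested. Hcar2 showed the same kind of split, with 0.77 in neutrophil-like and 0.38 in conventional dendritic-like cells, against -2.53 in NK-like cells, where it stood at 1.17 and 4.12 CPM in Vav1CreTet2KO mice and 6.68 and 26.9 in Tet2fl/fl mice. The NK-like change of Hcar2 was not called (edgeR adjusted p = 0.214), was called under 5 of 12 alternatives (adjusted p between 0.000486 and 0.618 over the 12) and ranged between -3.80 and -1.38 over them, and the 46 UMIs of Tet2fl/fl mouse 2 lay in 1% of its 400 NK-like cells. The neutrophil markers summed to 35.4 and 200 CPM in NK-like cells of Vav1CreTet2KO mice, against 85.7 and 786 in Tet2fl/fl mice, and their part was not tested. The differences between classes were not tested.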

How the results depend on the processing

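Leaving out each mouse in turn gave 51 to 1374 called genes in neutrophil-like cells (556 as reported) and 320 to 3136 in monocyte/macrophage-like cells (2446), 1 to 18 recruitment list genes in neutrophil-like cells (10) and 4 to 28 in monocyte/macrophage-like cells (23), and 5 to 7 of the 9 genes' calls in other classes (5). The lowest counts in both myeloid classes were without Vav1CreTet2KO mouse 1; the cause was not tested. Without a filter on low counts, 1060 genes, 16 list genes in neutrophil-like cells and 13 calls in other classes passed. With the sub-clusters led by another class kept, 20 list genes were called in neutrophil-like cells. Calls in other classes numbered 8 with DESeq2 and 11 with doublets kept, where Ccrl2 in CD4 T cells reversed to -1.05 from 0.12 on the log2 scale. With the replicate block, 650 and 1760 genes, 13 and 21 list genes and 8 calls in other classes passed; the mice share only a number.

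Of the 9 genes, log2 changes in neutrophil-like cells ranged from -1.82 to -0.92 for Cxcl2, -5.48 to -2.42 for Cxcl3, 3.82 to 5.58 for Prok2 and 1.02 to 2.14 for Cxcr4. Ccrl2 changed sign without Tet2fl/fl mouse 1 (0.07) and Cxcr2 with the sub-clusters kept (-0.39), and in monocyte/macrophage-like cells Cxcr2 without Tet2fl/fl mouse 1 (0.06) and Hcar2 under 3 alternatives (up to 0.60). The NK-like calls of Cxcl2 (adjusted p = 0.0893) and Cxcr4 (0.0583) were lost with doublets kept, and that of Cxcl2 also at clustering resolution 0.5 (0.349). With 251 to 1726 neutrophil-like cells per mouse, Prok2 and Cxcl1 rest on few UMIs.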
